A study of Mus musculus with 10 samples.

Results

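The 10 genes described here carry out or control the handling of iron by the liver: the 2 hepcidin genes Hamp1 and Hamp2, the transferrin receptor gene Tfrc, the hemochromatosis gene Hfe, the hemojuvelin gene Hfe2, the ferroportin gene Slc40a1, transferrin (Trf), ceruloplasmin (Cp), hemopexin (Hpx) and the matriptase-2 gene Tmprss6. They were chosen by name, and the files gave them 11 probes, Hfe having 2, out of 41174 probes on the array and 18921 genes tested. Hemopexin stands in the files under its older symbol Hpxn, Hamp1 is now called Hamp, and Hfe2 is now called Hjv. Each probe was well above background in Cy5, the dye of the liver RNA, in all 10 livers, and no spot of any of them was saturated.

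Total RNA from the livers of 5 mice without a functional glucagon receptor gene (Gcgr KO, labelled ko/ko; 2 males and 3 females) and of 5 wild-type mice (WT, labelled wt/wt; 3 males and 2 females) was measured on 2-colour Agilent arrays. The glucagon receptor is the hepatic receptor through which glucagon raises cAMP and glucose output. The labels name no treatment, and strain, age, diet and the cells in which the gene was deleted are not given in the sources used here. Liver RNA was labelled with Cy5 and hybridised against 1 common Cy3-labelled Universal mouse reference RNA, so each value is a log2 ratio of liver over reference, and a level is not comparable between genes.

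The targeted gene fitted the labels: Gcgr had log2 ratios of 0.28 to 0.36 in the 5 KO livers, against 7.74 to 8.14 in the 5 WT livers. The median net Cy5 signal per array ranged from 58.7 to 134, and the 10 arrays lay on 4 slides, with both genotypes on slides 1 and 3 only. The 3 slide 3 arrays and the slide 4 array were the dimmest. Of the hepatocyte markers, 7 genes were tested and none passed for genotype with limma (1 had an unadjusted p under 0.05, and Alb differed by 0.15, SE 0.17). Over all 18921 genes, about 3950 had a limma unadjusted p for genotype of 0.0497 or lower. The mean log2 ratio of the hepatocyte markers lay between 7.06 and 7.16 in KO livers and between 6.77 and 7.39 in WT livers. All of these are bulk livers, so fewer cells of a type and less RNA per cell cannot be told apart.

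Iron leaves cells through ferroportin, the only known exporter of iron in mammals, and the copper enzyme ceruloplasmin oxidises it so that it can bind transferrin in plasma. Hepcidin, a peptide made by hepatocytes, binds ferroportin and causes its loss from the cell surface. Hepatocytes transcribe hepcidin in response to BMP ligands, whose signal passes through SMAD proteins with hemojuvelin as co-receptor and with matriptase-2 as the protease that cleaves hemojuvelin, and in response to interleukin-6 through STAT3. Mice carry a pair of hepcidin genes, and the peptide of Hamp2 is not known to act on ferroportin.

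The promoters of the hepcidin pair are shown because the pair are near copies there and because the elements through which BMP and STAT3 signals act lie there. The sequences are from RefSeq (GRCm38.p6) and give the last 120 bases before each start on the minus strand, Hamp1 at chr7:30944030-30944149 and Hamp2 at chr7:30924182-30924301. Capitals mark GGCGCC, the core of the BMP response element, or the bases aligned with it in Hamp2, and then a match to the STAT motif TTCNNNGAA.
Hamp1: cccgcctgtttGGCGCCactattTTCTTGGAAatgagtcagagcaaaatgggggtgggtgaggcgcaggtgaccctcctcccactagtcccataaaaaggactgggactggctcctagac
Hamp2: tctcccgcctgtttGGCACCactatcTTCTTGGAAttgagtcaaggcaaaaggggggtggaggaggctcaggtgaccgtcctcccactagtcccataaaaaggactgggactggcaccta
Aligned over the 250 bases before the start, the pair matched at 227 of 253 columns (89.7%), with 6 gap columns. The BMP core began at base -109 of Hamp1, and the aligned Hamp2 bases, beginning at -106, differed by the substitution G4A, with positions counted from 1 at the first base of the motif. Searched on both strands of 250 bases before to 50 after the start of 32851 promoters, GGCGCC occurred in 11.9% of them and TTCNNNGAA in 8.3%. The cAMP response element TGACGTCA, present in 1.79% of promoters, and its shorter core TGACG, present in 20.8%, were in neither hepcidin window. Of the other members in that table (Tfrc, Hfe, Cp and Hpx), Tfrc alone held a match to any of the 4 motifs, GGCGCC at base -89 and TGACG at base 14 of 1 start site. The window of its other start site overlaps that one, and the same TGACG lies there at base -213.

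In livers lacking the glucagon receptor the transcripts of ferroportin and ceruloplasmin stood higher. Those of Slc40a1 were 1.83-fold and of Cp 1.58-fold as abundant in KO as in WT livers, and 8 of the 10 members did not pass the test. With limma, a genotype and a sex term and Benjamini-Hochberg adjustment over all genes, 2 of 10 members were called at an adjusted p under 0.05, both higher in KO, where 5.96% of all genes were called (2.88% higher and 3.08% lower in KO). The same 2 genes had KO and WT values that did not overlap, which held for 6.05% of genes without a missing value.

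**Figure D1:**
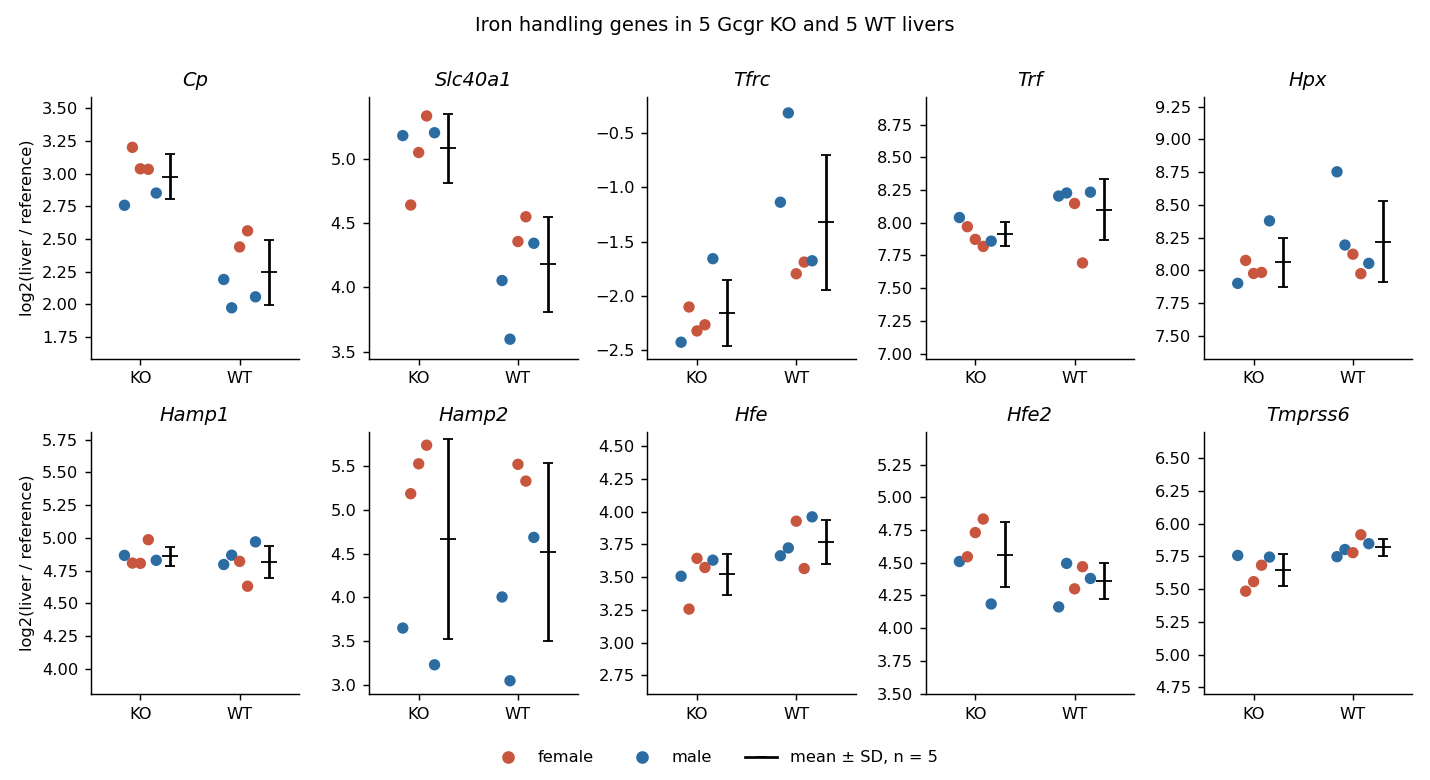
Log2 ratio of liver over reference (vertical axes, each spanning at least 2 log2 units) of the 10 genes in each of the 5 KO and 5 WT livers; red points are females, blue points males, and bars give the mean ± SD of 5 livers. KO and WT points separate for Cp and Slc40a1, while the Hamp2 points separate by sex.

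Ferroportin is made in liver mainly by Kupffer cells, the resident macrophages that recycle iron from red cells, and also by hepatocytes. The Slc40a1 probe (mm7, chr1:46145061-46145120, minus strand) had log2 ratios of 5.18, 4.64, 5.05, 5.33 and 5.20 in KO livers 1 to 5, against 4.05, 3.60, 4.36, 4.55 and 4.34 in WT livers 1 to 5. The lowest KO liver, a female, was above the highest WT liver, also a female. The difference was 0.87 (SE 0.18, 95% interval 0.48 to 1.27, limma adjusted p = 0.0162). It lost its call without KO 1 (0.80, adjusted p = 0.0625), and with slide as a fixed block it was 0.95 (adjusted p = 0.0166). Within slide 1 it was 1.08 and within slide 3 it was 0.75.

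The Slc40a1 difference was 0.55 in females (adjusted p = 0.2) and 1.19 in males (adjusted p = 0.0227). Females had 4.64, 5.05 and 5.33 in KO and 4.36 and 4.55 in WT, and males had 5.18 and 5.20 in KO and 4.05, 3.60 and 4.34 in WT. The groups were apart within each sex. The test of the difference between the sexes gave -0.64 (95% interval -1.33 to 0.05, limma adjusted p = 0.428), which did not pass. None of the 10 members passed that limma test on the log2 ratios, which called 0.0317% of all genes, and 0 of them had an unadjusted p under 0.05. In Cy5 alone none passed either, but the unadjusted limma p was 0.00771 for Hamp1, 0.0136 for Hfe2 and 0.0248 for Slc40a1 (adjusted p 0.197, 0.232 and 0.267).

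Markers of the cells that carry ferroportin are given beside it. None of 10 Kupffer cell and macrophage markers passed for genotype with limma, and 1 had an unadjusted p under 0.05. Their mean log2 ratio ranged from 3.29 to 3.98 in KO livers and from 2.97 to 3.93 in WT livers, and Clec4f, a lectin receptor of Kupffer cells, differed by 0.28 (SE 0.09, limma adjusted p = 0.0868). The 8 sinusoidal endothelial markers had means of 3.52 to 3.77 in KO livers and 2.86 to 3.40 in WT livers, without overlap. With limma 2 of the 8 rose, where 2.88% of all genes did, and 6 had an unadjusted p under 0.05, all higher in KO. Such p-values were common, with about 3950 of all 18921 genes at a limma unadjusted p of 0.0497 or lower, in either direction. The hyaluronan receptor Lyve1 rose by 1.47 (SE 0.25, adjusted p = 0.00678) and the adhesion molecule Pecam1 by 0.26 (SE 0.07, adjusted p = 0.0458). Lyve1 moved most and weighs heavily in the gap between the means. For Kdr, KO 1 (3.94) lay below WT 3 (4.39) and WT 4 (4.23), and for Clec4g KO 1 (5.52) lay below WT 3 (5.97) and WT 4 (5.95). The part of these cells in the Slc40a1 difference was not tested.

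Ceruloplasmin is secreted by hepatocytes and carries most plasma copper. The Cp probe (mm7, chr3:19721093-19721152, plus strand) had log2 ratios of 2.76, 3.20, 3.04, 3.03 and 2.85 in KO livers 1 to 5, against 2.19, 1.97, 2.44, 2.56 and 2.06 in WT livers 1 to 5. All KO livers were above all WT livers, and within each genotype the females were above the males. The KO difference was 0.66 (SE 0.07, 95% interval 0.50 to 0.82, limma adjusted p = 0.000492). Cp was also higher in females than in males, by 0.36 (SE 0.07, adjusted p = 0.0089). That call held in 17 of 21 alternative fits (adjusted p 0.00569 to 0.33). It was lost in Cy5 alone (adjusted p = 0.0654), with median centring (0.0631) and with outlier spots removed after the background fit (0.0566). It was also lost with the replicate block (0.33), where only replicate 2 holds both sexes and the sex term rests on that pair. The KO effect was 0.59 in females (adjusted p = 0.0122) and 0.73 in males (adjusted p = 0.00603), with a difference between the sexes of -0.14 (SE 0.14, adjusted p = 0.718). Within slide 1 the difference was 0.90 and within slide 3, where the KO liver was male and both WT livers were female, it was 0.35, while the fit with slide as a fixed block gave 0.72 (adjusted p = 0.00242). The genotype call held in 24 of 24 alternative fits, with differences of 0.59 to 0.73. Those do not include the split by sex in Cy5 alone, which gave 0.53 in females (adjusted p = 0.0737) and 0.77 in males (adjusted p = 0.0231).

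**Figure D2:**
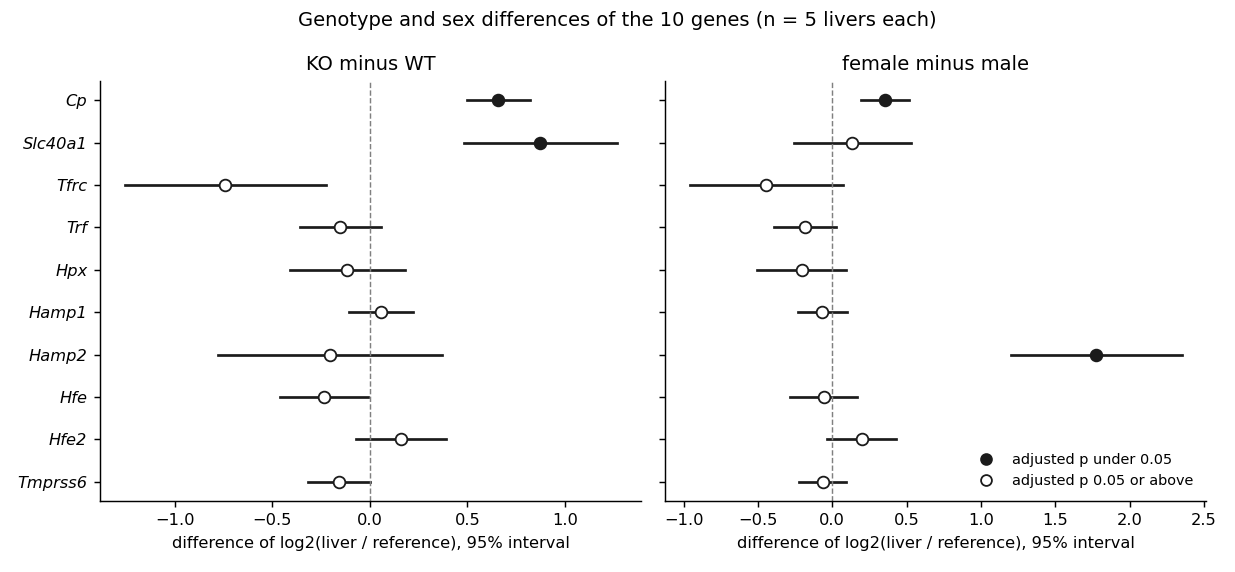
Difference of log2 ratio for the 10 genes, KO minus WT on the left and female minus male on the right, from 1 limma fit; points are estimates, bars 95% intervals, and filled points have an adjusted p under 0.05. For genotype Cp (0.66) and Slc40a1 (0.87) are filled, and for sex Hamp2 (1.78) and Cp (0.36).

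On the uptake side, the largest difference was that of Tfrc, which did not pass. The transferrin receptor takes up transferrin-bound iron, and its mRNA is stabilised by iron regulatory proteins when the cell's iron is low. Its probe (mm7, chr16:32306693-32306752, plus strand) is spotted 10 times on each array, and the SD between those spots was 0.029 to 0.136. The log2 ratios were -2.42, -2.10, -2.32, -2.26 and -1.66 in KO livers 1 to 5, against -1.14, -0.31, -1.79, -1.69 and -1.67 in WT livers 1 to 5. KO 5 overlapped the WT range, and WT 1 and WT 2, males on slide 1, stood above the other 3 WT livers. The difference was -0.74 (SE 0.24, 95% interval -1.26 to -0.23, limma adjusted p = 0.0914). It was -1.54 within slide 1 and 0.08 within slide 3, and it passed without WT 5 (-0.86, adjusted p = 0.0489). The net Cy5 signal was low, at 134 to 163 in KO livers, against 432, 737, 144, 144 and 108 in WT livers 1 to 5. On the dimmest arrays, those of slides 3 and 4 (KO 5 and WT 3 to 5), the ratios were -1.79 to -1.66 in both genotypes. The part of array brightness in the Tfrc difference was not tested.

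Erythroid precursors are rich in transferrin receptor. Of the erythroid markers, 4 genes were tested, and their mean log2 ratio was 2.22 to 2.89 in KO livers and 2.40 to 3.04 in WT livers. The erythroid transcription factor Klf1 fell by 0.63 (SE 0.10, limma adjusted p = 0.00515), and the others did not pass. Alas2 differed by -0.21 (SE 0.08, adjusted p = 0.173), Hba-a1 by 0.14 (SE 0.16, adjusted p = 0.662) and Slc4a1 by 0.005 (SE 0.09, adjusted p = 0.984). Alas2 differed far more by sex (female minus male -2.195, limma adjusted p = 3.46e-08), and this weighs in the range of the means. The part of erythroid cells in the Tfrc values was not tested.

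The carriers that bring iron and heme through plasma did not pass. Transferrin (mm7, chr9:102929342-102929957, minus strand) had log2 ratios of 8.04, 7.97, 7.87, 7.82 and 7.86 in KO livers, against 8.20, 8.23, 8.15, 7.69 and 8.23 in WT livers. Of the WT livers 4 lay above every KO liver and WT 4 lay below all of them, and the difference was -0.15 (SE 0.10, 95% interval -0.36 to 0.06, adjusted p = 0.406). Hemopexin, which binds free heme (mm7, chr7:101648211-101648270, minus strand), had 7.90, 8.08, 7.98, 7.98 and 8.38 in KO livers, against 8.75, 8.19, 8.12, 7.98 and 8.05 in WT livers. The Hpx groups overlapped, with a difference of -0.12 (SE 0.14, 95% interval -0.41 to 0.18, adjusted p = 0.693).

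Among the proteins that set the hepcidin level, no member passed. HFE is a membrane protein that binds transferrin receptors and takes part in sensing iron stores. Its main probe (mm7, chr13:23069855-23069914, minus strand) had log2 ratios of 3.26 to 3.64 (median 3.57) in KO livers, against 3.57 to 3.96 (median 3.72) in WT livers. The difference was -0.23 (SE 0.10, 95% interval -0.46 to -0.0088, limma unadjusted p = 0.043, adjusted p = 0.221). The second Hfe probe (mm7, chr13:23068401-23068460, minus strand) differed by -0.17 (SE 0.10, adjusted p = 0.414). Both Hfe probes pointed the same way, with overlapping groups.

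Hemojuvelin (Hfe2; mm7, chr3:96402140-96402199, plus strand) had log2 ratios of 4.18 to 4.83 (median 4.55) in KO livers, against 4.16 to 4.49 (median 4.38) in WT livers. The difference was 0.16 (SE 0.11, 95% interval -0.07 to 0.39, adjusted p = 0.442). In Cy5 alone it was 0.61 in females, which passed (adjusted p = 0.0427), and -0.02 in males (adjusted p = 0.963), and the difference between the sexes did not pass (0.63, SE 0.22, adjusted p = 0.232). As a log2 ratio the female difference was 0.32 and did not pass (limma adjusted p = 0.24). The Hfe2 reference signal was dim (net Cy3 52.8 to 108) and ran with Cy5 (Pearson r = 0.847, 10 arrays). With the scanner's own log ratio the Hfe2 difference was -0.055 (limma adjusted p = 0.681). Matriptase-2 (Tmprss6; mm7, chr15:78522780-78522839, minus strand) had 5.76, 5.48, 5.56, 5.68 and 5.75 in KO livers, against 5.75, 5.80, 5.78, 5.92 and 5.85 in WT livers. The groups overlapped only between 5.75 and 5.76. The Tmprss6 difference was -0.16 (SE 0.07, 95% interval -0.32 to -0.0002, limma unadjusted p = 0.0497, adjusted p = 0.238).

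The log2 ratio of Hamp1 was nearly flat over the 10 livers. The probe (mm7, chr7:27882251-27882310, minus strand) had 4.87, 4.81, 4.81, 4.99 and 4.83 in KO livers 1 to 5, against 4.80, 4.87, 4.82, 4.63 and 4.97 in WT livers 1 to 5. The difference was 0.06 (SE 0.08, 95% interval -0.11 to 0.22, limma adjusted p = 0.739). This flat ratio came from 2 channels that both varied widely. The net Cy5 signal of liver RNA was 137000, 111000, 144000, 116000 and 66900 in KO livers 1 to 5, against 58700, 28300, 69800, 63700 and 17000 in WT livers 1 to 5. The net Cy3 signal of the common reference was 4240, 4070, 4870, 3400 and 3290 on the KO arrays, against 2020, 939, 2640, 3280 and 904 on the WT arrays. Cy3 was high where Cy5 was high, although the labels name the same reference for every array. Over the 10 arrays, which share the reference and differ in brightness, the log2 signals of the channels correlated at Pearson r = 0.993 after quantile normalisation within each channel.

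**Figure D3:**
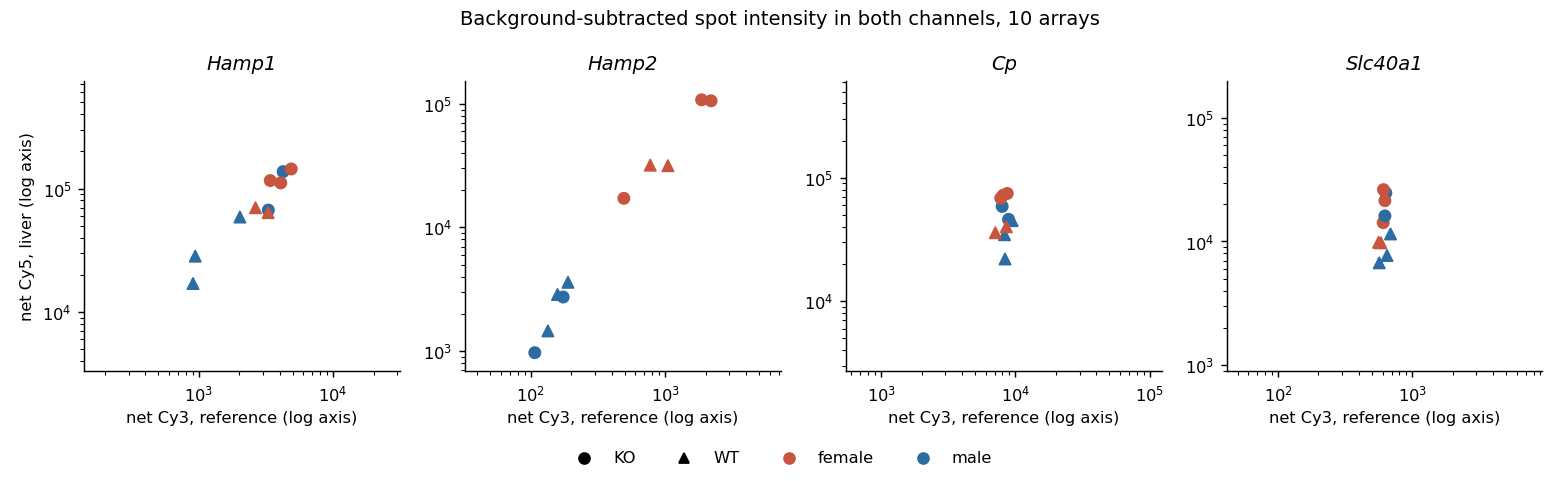
Net spot intensity of liver RNA (Cy5, vertical) against common reference (Cy3, horizontal), both after local background subtraction and on log axes of equal span, for 4 genes on 10 arrays; circles are KO, triangles WT, red female and blue male. For Hamp1 and Hamp2 the reference signal runs with the liver signal (for Hamp1 Cy3 spans 904 to 4870, and for Hamp2 it reaches 2200), while for Cp and Slc40a1 it stays between 7080 and 9450 and between 561 and 688.

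Such movement of the reference was rare. The SD of normalised log2 Cy3 over the arrays was 0.832 for Hamp1 and 1.423 for Hamp2, the highest of all 18921 genes. It was 0.024 to 0.237 for the other 8 members, and 9 genes (0.0477%) reached the SD of Hamp1. The genes between Hamp2 and Hamp1 in that order, named after their values were seen, were Hsd3b5, Elovl3, Saa2, Cyp2b9, AK050941, Olfr530 and Cyp7b1, each with a correlation between the channels of 0.966 to 0.999. Several are known as genes of mouse liver with large differences between the sexes (Hsd3b5, Elovl3, Cyp2b9, Cyp7b1), and Saa2 encodes an acute-phase protein. The cause of the moving reference signal was not tested. Because the log2 ratio divides by this moving signal, both measures are given for the hepcidin pair.

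Read from the Cy5 channel alone, Hamp1 was higher in KO livers. Its quantile-normalised log2 Cy5 signal was 16.83, 16.90, 16.87, 16.63 and 16.39 in KO livers 1 to 5, against 15.53, 14.54, 16.24, 16.22 and 14.65 in WT livers 1 to 5. The groups did not overlap, and the 3 male WT livers were the lowest. The difference was 1.13 (SE 0.24, 95% interval 0.62 to 1.65, 2.19-fold, limma adjusted p = 0.0157), where 6.26% of genes were called in that channel. It was 1.23 with slide as a fixed block (adjusted p = 0.0242), and without KO 1 it was 0.92 and missed the threshold (adjusted p = 0.0541). The KO effect in Cy5 was 0.57 in females (adjusted p = 0.216) and 1.70 in males (adjusted p = 0.00427), and the difference between the sexes did not pass (-1.13, SE 0.35, adjusted p = 0.197). In Cy3, the channel labelled as reference RNA, the same contrast gave 0.98 (SE 0.27, limma adjusted p = 0.662). That estimate was near the Cy5 one in size, although it did not pass. Only 0.0951% of genes were called for genotype in Cy3. The call for Hamp1 therefore rests on which measure is read: it did not pass as a ratio to the reference and passed in Cy5 alone.

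In the Cy5 channel alone, Slc40a1 (0.93, SE 0.18, adjusted p = 0.00885) and Cp (0.65, SE 0.11, adjusted p = 0.00545) passed as they did in the ratio, and the other 7 members did not. The Cy3 signals differed between KO and WT arrays by -0.01 (SE 0.03) for Slc40a1 and -0.03 (SE 0.05) for Cp. Split by sex in Cy5 alone, the Slc40a1 difference was 0.56 in females (limma adjusted p = 0.136) and 1.30 in males (adjusted p = 0.00599).

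Hamp2 varied with sex and showed no call for genotype in either measure. Its probe (mm7, chr7:27862281-27862340, minus strand) had log2 ratios of 3.65, 5.18, 5.52, 5.74 and 3.23 in KO livers 1 to 5, against 4.0, 3.05, 5.52, 5.33 and 4.68 in WT livers 1 to 5. The 5 females (5.18 to 5.74) were all above the 5 males (3.05 to 4.68), in both genotypes. The sex difference was 1.78 (SE 0.26, 3.42-fold higher in females, limma adjusted p = 0.00106), and 2 of 10 members, Hamp2 and Cp, were called for sex, both higher in females, where 11.5% of all genes were (4.99% higher and 6.55% lower in females). For genotype Hamp2 differed by -0.21 (SE 0.26, 95% interval -0.78 to 0.37, adjusted p = 0.717). In Cy5 alone the genotype difference was -0.03 (SE 0.49, adjusted p = 0.985).

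The sex difference of Hamp2 was far larger in Cy5 alone, at 4.38 on the log2 scale (SE 0.49, 20.9-fold, limma adjusted p = 9.73e-05). The net Cy5 signal in females was 17200, 106000 and 108000 in KO livers 2 to 4 and 31900 and 31600 in WT livers 3 and 4. In males it was 2730 and 967 in KO livers 1 and 5 and 3590, 1450 and 2860 in WT livers 1, 2 and 5. The Cy3 signal also stood higher on the arrays of females, by 2.48 (SE 0.33, adjusted p = 0.0125). The transcripts of the hepcidin pair are near copies, and how far each probe also reads the other gene was not tested.

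The genes whose log2 ratios ran most like those of a member over the 10 livers, which share genotype, sex and slide, were listed as a description. For Cp they were Rev3l (Pearson r = 0.975), Ramp2 (0.967) and Mrc1 (0.964). Rev3l differed by 0.21 in KO livers and did not pass (limma adjusted p = 0.0633). Ramp2, a receptor accessory protein of endothelium, rose by 0.37 (adjusted p = 0.0128), and Mrc1, the mannose receptor of sinusoidal endothelium and macrophages, rose by 0.59 (adjusted p = 0.00626). For Slc40a1 they were D16Bwg1543e (0.966), Map3k14 (0.964) and Rilpl1 (0.963). Map3k14 rose by 0.38 in KO livers (limma adjusted p = 0.0185), while D16Bwg1543e (0.27, adjusted p = 0.0774) and Rilpl1 (0.24, adjusted p = 0.069) did not pass. For Hamp2 they were Sult1c2 (0.978), Olfr933 (0.970) and Prlr (0.969), all higher in females, Prlr, the prolactin receptor, by 1.59 (adjusted p = 5.98e-05). For Hamp1, whose ratio hardly varied, they were Ly6g5c (0.926), Eif5 (0.914) and Paqr9 (0.905), none of which passed for genotype.

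The 112 tested genes of the wider iron, heme and copper pathways held 7 that rose and 4 that fell in KO livers, 9.82% of them against 5.96% of all genes. The lists were chosen with earlier results of these data known, so the 2 shares describe them and no enrichment can be read from them. Of 31 genes of hepcidin regulation, 3 rose and 1 fell, with a median difference of 0.10 against -0.003 over all genes. Id1, an inhibitor of helix-loop-helix factors, had log2 ratios of -1.29, -0.73, -0.45, 0.09 and -1.23 in KO livers, against -3.63, -3.01, -1.82, -1.37 and -2.74 in WT livers, without overlap. It rose by 1.55 (SE 0.21, limma adjusted p = 0.00174), and its second probe differed by 1.64. The inhibitory SMAD gene Smad7 rose by 0.90 (SE 0.20, adjusted p = 0.0232), and Id2 by 0.74 (SE 0.20, adjusted p = 0.0493). All 3 are known targets of BMP signals, as are Atoh8, Id3 and Smad6 of the same list, which did not pass. Atoh8 differed by 0.74 (SE 0.20, adjusted p = 0.0504), Id3 by 0.75 (SE 0.28, adjusted p = 0.152) and Smad6 by 0.16 (SE 0.13, adjusted p = 0.527). Gdf15, a stress-induced ligand of the TGF-beta family, fell by 0.83 (SE 0.22, adjusted p = 0.0493). The ligand gene Bmp6, made in liver by endothelial cells, differed by 0.08 (SE 0.16, adjusted p = 0.819), and the iron-sensing receptor gene Tfr2 by -0.02 (SE 0.07, adjusted p = 0.934). The mean of the sinusoidal endothelial markers given beside Slc40a1, in which Lyve1 weighs heavily, stood higher in the same KO livers. The part of these cells in the differences was not tested.

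Of 13 genes listed under the interleukin-6 and STAT3 arm, 1 rose and 2 fell (median 0.09). That list also held the activin subunit genes Inhba and Inhbb and the interleukin-1 receptor gene Il1r1, which are not components of interleukin-6 signalling. The gene that rose was Inhba. It had log2 ratios of 0.09 to 0.57 in KO livers, against -1.39 to -0.80 in WT livers, and rose by 1.39 (SE 0.14, limma adjusted p = 0.000329). The leukemia inhibitory factor receptor gene Lifr had 5.65 to 5.91 in KO livers, against 6.58 to 7.46 in WT livers, and fell by 1.30 (SE 0.13, adjusted p = 0.000202), while its 4 other probes differed by -0.57 to -0.11. Stat3 itself fell by 0.35 (SE 0.09, adjusted p = 0.037), and its second probe differed by -0.06.

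Of 22 genes of iron uptake, storage and export, 2 rose and 1 fell (median -0.001). Heph encodes hephaestin, a membrane homologue of ceruloplasmin that acts with ferroportin. It had log2 ratios of 0.75 to 1.07 in KO livers, against 0.40 to 0.72 in WT livers, and rose by 0.35 (SE 0.07, adjusted p = 0.0191). The metalloreductase gene Steap2 rose by 0.47 (SE 0.12, adjusted p = 0.0427). Scara5, a ferritin receptor gene, fell by 0.76 (SE 0.20, adjusted p = 0.0448), with its probe well above background in 3 of 5 KO and 4 of 5 WT livers and its second probe at a difference of 0. The ferritin subunit genes did not pass, Fth1 differing by 0.13 (SE 0.09, adjusted p = 0.484) and Ftl1 by 0.11 (SE 0.10, adjusted p = 0.597).

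None of 21 genes of heme and haemoglobin handling passed with limma (9 had an unadjusted p under 0.05, 5 higher and 4 lower in KO; median 0.003), the heme oxygenase gene Hmox1 differing by 0.55 (SE 0.26, adjusted p = 0.249). Of 13 mitochondrial iron genes 1 rose (median 0.04): Slc25a37, mitoferrin-1, rose by 0.44 (SE 0.06, adjusted p = 0.0029), with its second probe at 0.06. None of 12 copper genes passed with limma (5 had an unadjusted p under 0.05, 2 higher and 3 lower in KO; median -0.03). The heme and copper counts stand beside about 3950 of all 18921 genes with a limma unadjusted p of 0.0497 or lower. The metallothionein genes Mt1 (-1.32, SE 0.50, adjusted p = 0.155) and Mt2 (-1.73, SE 0.78, adjusted p = 0.237) differed with a wide spread between WT livers (SD 1.55 and 2.17).

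**Figure D4:**
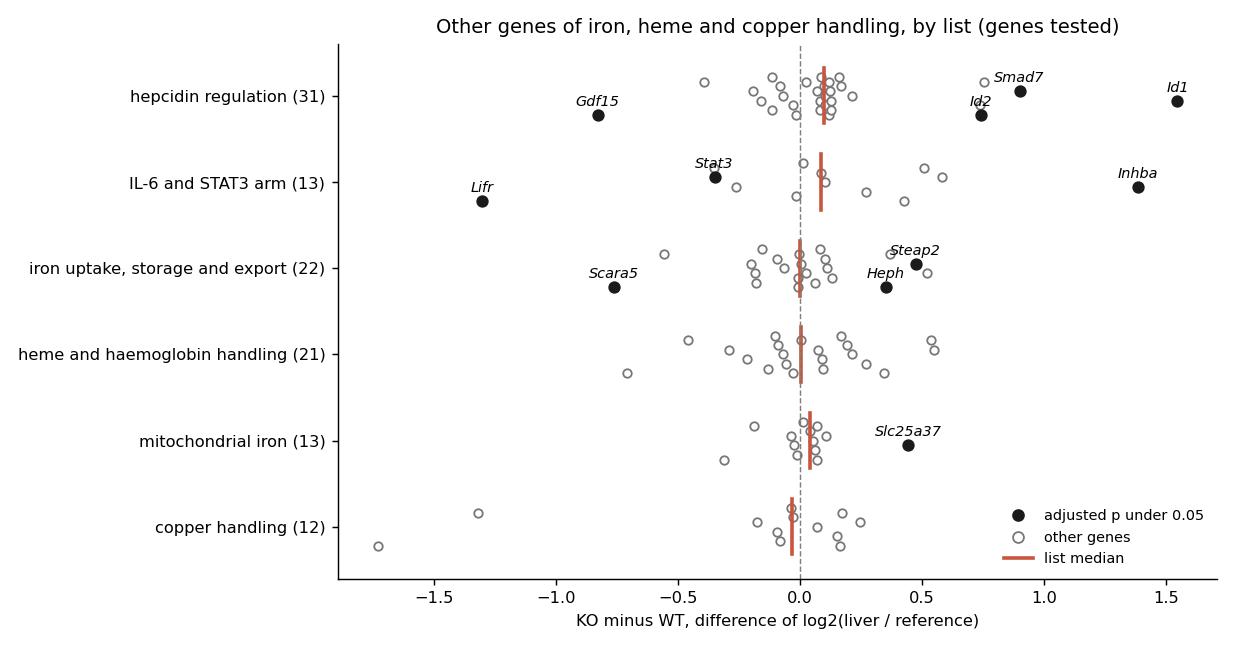
KO minus WT difference of log2 ratio (horizontal axis) for the tested genes of 6 pathway lists, 1 point a gene, spread vertically for legibility; filled and named points have an adjusted p under 0.05, and red bars are list medians. Hepcidin regulation holds 3 risers and 1 gene that fell, and no gene is filled for heme or copper handling.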

How the data were processed

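Agilent Feature Extraction made the spot signals, in version 10.7 per the submitters' processing notes, which the file headers give as 10.7.3.1. The deposited mean signals and local background medians are linear intensity values, and the deposited LogRatio is a log10 ratio of Cy5 to Cy3, both per the file headers. The authors' deposited value table holds log2 ratios, as comparison with each array showed (r = 0.9994 to 0.9996, column medians 0.00776 to 0.023); the sources used here do not give its background correction. No dyes were swapped, so a dye bias of a probe is shared by all arrays.

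Of 45018 spots per array, 1639 were controls. On each array 169 to 291 spots carried an outlier flag of the feature or its background and were dropped, a choice made after the data were seen. Signals were then corrected with normexp (offset 50) and log2 ratios normalised by loess (limma 3.58.1, R 4.3.3). Spots of a probe were averaged, 26933 probes passed the filter (Cy5 well above background on 4 or more of the 10 arrays), and each gene was read from its probe of highest mean Cy5 signal. Single channels were quantile-normalised between arrays. The model held genotype and sex, and Benjamini-Hochberg adjustment ran over all 18921 genes at 0.05. Probe coordinates are those of the files (mm7), with no gene models of mm7 at hand. All 10 members matched RefSeq by accession, and 6 had a promoter in the RefSeq table.

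On simulated data for the KO comparison over 18921 genes, 74.2%, 92.5% and 100% of changed genes were called at log2 differences of 0.5, 1 and 2, with 7 false calls. The members and the gene lists were chosen with earlier results of these data known. The named genes are all members, the pathway genes that passed for genotype and the 3 genes of most similar pattern for Cp, Slc40a1, Hamp1 and Hamp2. Other genes were named as examples after their values were seen. Nothing in the labels beyond genotype and sex says whether mice shared litters or cages. The array number limits precision. Alternatives covered the background correction, normalisation, filter, probe choice, sex term, slide, replicate block, single channel, the authors' table and leaving out each liver.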

Additional observations from a re-analysis of the deposited data

Results flagged for a closer look

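Of 20 groups checked (10 genes in each genotype), 2 held a liver that stood far from the other 4, where chance marks about 1 group in 20. Transferrin in WT livers had 7.69 in WT 4, a female, against 8.15 to 8.23 in the other 4, a gap of 0.84 of the range. Without WT 4 the Trf difference was -0.27 (limma adjusted p = 0.0581), against -0.15 with all livers. It missed the threshold with every liver left out in turn (-0.27 to -0.09, adjusted p 0.0581 to 0.716). Hemopexin in WT livers had 8.75 in WT 1, a male on slide 1, against 7.98 to 8.19 in the other 4, a gap of 0.719 of the range. The Hpx difference with each liver left out in turn lay between -0.19 and -0.01.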

How the results depend on the processing

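The Cp difference passed in 24 of 24 alternative fits and that of Slc40a1 in 21 of 24. Leaving out each liver in turn gave 0.62 to 0.70 for Cp and 0.75 to 0.99 for Slc40a1, which missed the threshold without KO 1 (0.80, adjusted p = 0.0625). Slc40a1 was 0.55 in females (adjusted p = 0.2) and, without KO 1 and KO 5, 0.55 (adjusted p = 0.226, chosen after seeing the data), a fit in which no male KO liver remained. Tfrc, at -0.86 to -0.54 with a liver left out, passed without WT 5. Hamp1 passed in Cy5 alone (1.13, adjusted p = 0.0157), and with a liver left out that difference was 0.92 to 1.27. In these fits Slc40a1, Tfrc and Hamp1 were the members that changed side of the threshold for genotype. Split by sex in Cy5 alone, Hfe2 also passed in females (0.61, adjusted p = 0.0427) and Cp missed it there (0.53, adjusted p = 0.0737). The sex difference of Cp missed it in Cy5 alone (0.35, adjusted p = 0.0654), with median centring (0.43, adjusted p = 0.0631) and with outlier spots removed after the background fit (0.43, adjusted p = 0.0566). Deviations of same-numbered KO and WT livers correlated over genes at -0.306 to 0.251. Differently numbered livers were not compared, so these values cannot decide whether the replicate number pairs the mice. With the number as a block the genes called for genotype fell to 303. In that fit the sex differences of Cp (0.62, limma adjusted p = 0.33) and Hamp2 (2.48, adjusted p = 0.13) missed the threshold. Only replicate 2 joins a female (KO 2) and a male (WT 2). The sex difference there rests on that pair alone, so this fit cannot decide on the sex calls. The causes of the other changes were not tested.

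Values within slides, which mix sexes and have no test, were 0.90 and 0.35 for Cp on slides 1 and 3, 0.89 and -2.19 for Hamp2, -0.48 and 0.33 for Hpx, -1.54 and 0.0849 for Tfrc, and -0.20 for Hfe2 on slide 3. Among the males of slide 1 alone, added after seeing the data, they were 1.35 for Slc40a1, -1.70 for Tfrc, -0.57 for Hpx and -0.018 for Tmprss6. Of 18921 genes, 1127 were called for genotype, 48.4% of them higher in KO. With median centring, which moved the median of all genes to 0.071, 279 were called (72% higher), with outlier spots removed after the background fit 337 (58.8% higher) and with no sex term 619. With a liver left out 590 to 1173 were called, the lowest counts being 590 without WT 3, 596 without KO 1 and 667 without KO 4.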
